A study of Mus musculus with 24 samples.

Results

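Paneth-cell fractions of Setd1a knockout crypts were compared with the transit-amplifying (TA) fractions sorted from the same animals' small intestine, in 4 libraries of each, 8 of the 24 RNA-seq libraries of the series. The 8 libraries were taken by their labels alone, with no measured value used. Each of 4 homozygous animals, coded BN45, BO25, BO57 and BP04, gave 1 library of each fraction, so the fractions were compared within animals. The homozygous animals (Setd1a FC/FC, here hom) and the heterozygous controls of the series (Setd1a FC/+, here het, animals BN44, BO27, BO58 and BP03, 4 Paneth and 4 TA libraries) all carried Lgr5-eGFP-CreERT2, which places GFP and tamoxifen-inducible Cre under the Lgr5 locus. All were injected intraperitoneally with 1 mg tamoxifen on 3 consecutive days. Crypts were dissociated 4 days after induction, stained for EpCAM, CD24 and CD45, and sorted by flow cytometry, so the het animals are treated animals with 1 floxed allele and not untreated wild types. The driver acts in Lgr5+ cells, the share of cells of either fraction that had lost Setd1a was not measured, and ages are not given in the labels.

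Setd1a encodes a histone H3 lysine 4 methyltransferase, the catalytic subunit of one of the COMPASS complexes that mark active promoters. Paneth cells are long-lived secretory cells at the crypt base that store alpha-defensins, lysozyme and other antimicrobial proteins in large granules and supply Wnt and Notch ligands to the neighbouring Lgr5+ stem cells. TA cells lie above them, divide several times and give rise to absorptive and secretory lineages. CD24 is high on Paneth cells and is also carried by enteroendocrine cells, which release gut hormones, and by tuft cells, which are chemosensory cells with eicosanoid and interleukin output, so a sort on CD24 can hold all of these.

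The Paneth libraries held 25279345 to 35273988 gene counts and the TA libraries 27998132 to 32709930. Values are counts-per-million (CPM) of the library size after TMM scaling, and sets of 4 values follow the order BN45, BO25, BO57 and BP04. A difference was called at a Benjamini-Hochberg adjusted p below 0.05 in edgeR's quasi-likelihood test with the animal as a block. Defensin counts set the composition of the Paneth libraries: they took 44.19, 23.48, 12.96 and 19.99% of all gene counts in the Paneth libraries, against 0.3894, 0.08711, 0.09912 and 0.04942% in the TA libraries (higher in 4 of 4 animals, exact sign-change permutation test, two-sided p = 0.125, the smallest that 4 pairs allow). Mitochondrially encoded genes took 2.4, 4.148, 10.06 and 8.992% of counts in the Paneth libraries, against 11.77, 10.72, 13.69 and 15.05% in the TA libraries (exact p = 0.125). Among the Paneth libraries BN45 had the highest defensin share, and BN45 and BO25 had lower mitochondrial shares than BO57 and BP04. Values without single animals are given for many of the calls and counts that they change. Where none are given, a count may still depend on single animals.

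Setd1a itself (chr7:127776670-127800122, build GRCm38) had 7.17, 6.04, 5.43 and 4.25 CPM in the hom Paneth libraries, against 4.08, 5.94, 4.22 and 4.64 CPM in the hom TA libraries. The sets overlapped and the difference did not pass the test (log2 fold change 0.27, SE 0.34, adjusted p = 0.59), and its sign turned when libraries were scaled by their totals alone. Counts run over all exons of the gene, so they do not show whether a single floxed exon was lost. In het animals Setd1a averaged 9.47 ± 3.90 CPM in Paneth libraries and 4.68 ± 1.39 CPM in TA libraries (SD, n = 4 each; log2 fold change 0.97, adjusted p = 0.057).

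Of 16161 genes tested, 4839 differed between the hom Paneth and hom TA fractions, which is 29.9% of all genes tested. Of these, 2683 were higher in the Paneth fraction (16.6%) and 2156 were lower (13.3%). The 2 directions differed in size: 2098 of the higher genes changed at least 2-fold and 705 at least 16-fold, whereas 956 of the lower genes changed at least 2-fold and 34 at least 16-fold. Among the higher genes, 139 had at most 3 counts over the 4 TA libraries together, so their fitted fold changes have no firm upper end. The median log2 fold change over all genes was 0.03. Scaling by library totals alone, with no correction for the defensin counts, shifted that median by -0.68 and left 1046 genes higher and 3682 lower, so the balance of directions depends on the scaling, and small fold changes are read against that shift. Leaving out 1 animal left 1537 higher and 1291 lower without BN45, 1639 and 1108 without BO57, 2101 and 1635 without BO25, and 1955 and 1354 without BP04.

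**Figure D1:**
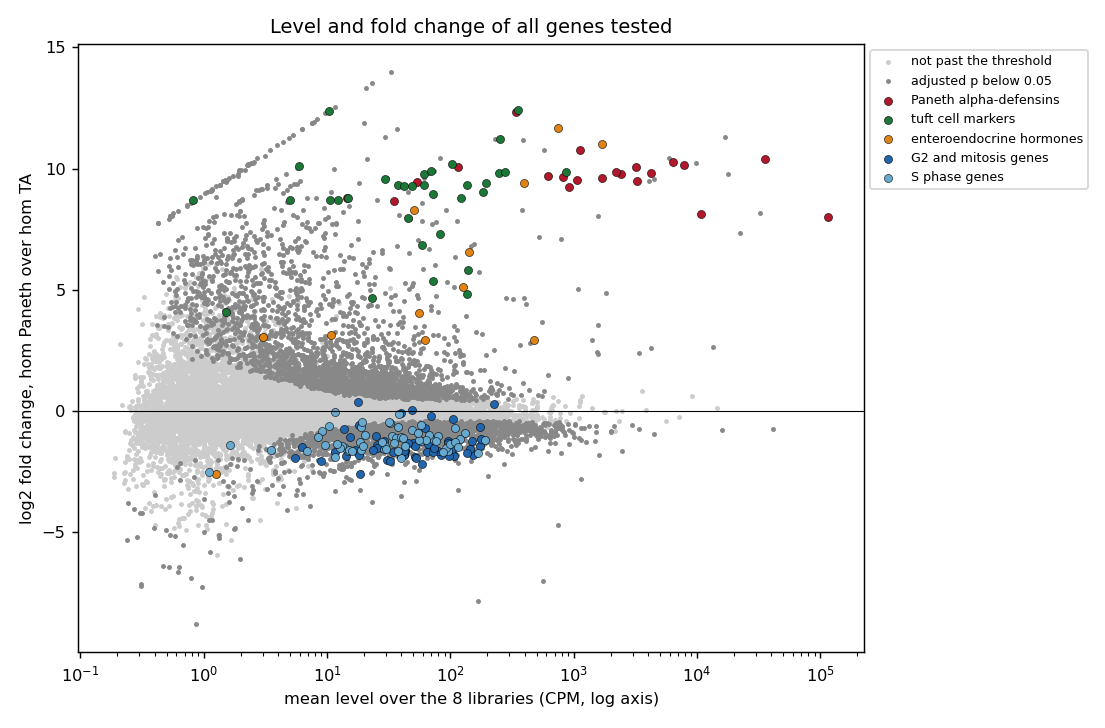
Mean level over the 8 libraries in CPM (log axis) against the log2 fold change of hom Paneth over hom TA, one point for each of the 16161 genes tested; dark grey marks an adjusted p below 0.05 and colours mark 5 gene lists. The 21 defensins and 33 tuft markers lie at log2 fold changes between 4.07 and 12.42, and the S phase and mitotic genes lie mostly between -2.6 and 0.

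The 12 genes of smallest p in the higher direction belonged to several cell types. Fyb, an adaptor of immune receptor signalling that tuft cells also express, had 193, 227, 413 and 264 CPM in the Paneth libraries, against 4.03, 3.46, 5.51 and 5.96 CPM in the TA libraries (log2 fold change 5.83, SE 0.20, adjusted p = 4.9e-05). Plcg2, a phospholipase C that releases intracellular calcium, had 173, 164, 210.04 and 181 CPM in the Paneth libraries, against 3.25, 4.12, 6.52 and 4.87 CPM in the TA libraries (log2 fold change 5.32, SE 0.19, adjusted p = 4.9e-05). The phosphatase gene Ptpn6, the endoplasmic reticulum gene Lrmp and the surface receptor gene Cd300lf followed, with log2 fold changes of 4.80, 9.04 and 11.62. In each of these genes every Paneth library lay above every TA library. The signalling regulator Rgs22 (11.32), the acid-sensing channel gene Asic5 (11.87) and the tubulin gene Tuba1a (6.36) were also near absent from the TA libraries, Rgs22 with 3 counts and Asic5 with 1 count over 4 libraries. Nupr1, a stress-responsive chromatin protein, had 1012, 521, 257 and 377 CPM in the Paneth libraries, against 32.2, 23.98, 14.2 and 12.4 CPM in the TA libraries (log2 fold change 4.63, SE 0.20, adjusted p = 6.9e-05). Tm4sf4, a tetraspanin-like membrane protein, had 1079, 729.9, 1271 and 1049 CPM in the Paneth libraries, against 80.6, 71.6, 89.5 and 78.3 CPM in the TA libraries (log2 fold change 3.67, SE 0.16, adjusted p = 6.9e-05).

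The marker given for the fraction, Lyz1 (chr10:117287797-117292868, GRCm38), encodes the lysozyme of Paneth granules. It had 125290, 64021, 31867 and 37000 CPM in the Paneth libraries, against 846, 73.7, 185 and 108 CPM in the TA libraries (log2 fold change 8.18, SE 0.57, adjusted p = 0.00027). Each animal's Paneth library held more than its TA library by 7.21 to 9.76 on the log2 scale, and no TA library came near the lowest Paneth library, so the label fits its marker. Lyz2 is a near-identical gene and the counting could have split reads between them, so Lyz1 and Lyz2 are best read together. In these bulk libraries fewer cells of a type and less RNA per cell cannot be told apart, which holds for every level below.

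Alpha-defensins are the microbicidal peptides of Paneth granules, cleaved from precursors by the metalloprotease Mmp7. All 21 alpha-defensin genes that passed the filter on low counts, of 30 listed and 22 in the table, were higher in the Paneth fraction, with a median log2 fold change of 9.68 (against 16.6% of all genes tested called higher and a median of 0.03). Genes of this family are near copies of each other on chromosome 8, so the split of counts between single members is uncertain and their sum is firmer. The summed level was 963700, 276700, 121500 and 221500 CPM in the Paneth libraries, against 3006, 643, 787 and 407.5 CPM in the TA libraries. These sums use the TMM-scaled sizes and are not shares of a library. Defa24 was the most abundant transcript per length in the Paneth fraction, at 300600 ± 52010 transcripts-per-million (TPM, counts divided by gene length and scaled to the same total in each library; mean ± SD, n = 4), against 5243 ± 5098 TPM in the TA fraction. It had 521320, 174860, 77881 and 147520 CPM in the Paneth libraries, against 2267, 578, 669.5 and 300.3 CPM in the TA libraries (log2 fold change 7.98, SE 0.46, adjusted p = 0.00015). The second, Defa30, had 91000 ± 29260 TPM in the Paneth fraction and 268 ± 179.5 TPM in the TA fraction. Defa36 had 688, 126, 47.3 and 62.8 CPM in the Paneth libraries, against 0.549, 0.0264, 0.112 and 0.101 CPM in the TA libraries (log2 fold change 10.06, SE 0.38, adjusted p = 4.9e-05). Its Paneth levels differed widely between animals, with BN45 highest in both fractions. Defa17, Defa31, Defa37, Defa26, Defa3 and Defa27 had log2 fold changes of 8.10, 12.32, 9.45, 9.63, 9.59 and 8.67. The defensin-like genes Gm14851 (52570 ± 13930 TPM in Paneth, 104 ± 90.7 TPM in TA) and AY761184 (38510 ± 13350 TPM in Paneth, 154 ± 71.8 TPM in TA) followed by mean TPM.

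Promoter sequence is shown for 3 defensins, since the family rose together and a recognition sequence of the Wnt-responsive TCF/LEF factors, known from Paneth cell gene control, could be looked for. The sequences come from RefSeq (build GRCm38.p6), cover the 150 bases before the gene's start 5′ to 3′ on the gene's strand, and carry the letters ATCAAAG in capitals.
Defa22, chr8:21162127-21162276, + strand: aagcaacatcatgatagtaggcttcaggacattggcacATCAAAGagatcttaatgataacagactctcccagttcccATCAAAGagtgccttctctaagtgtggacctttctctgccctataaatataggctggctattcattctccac
Defa36, chr8:21427278-21427427, + strand: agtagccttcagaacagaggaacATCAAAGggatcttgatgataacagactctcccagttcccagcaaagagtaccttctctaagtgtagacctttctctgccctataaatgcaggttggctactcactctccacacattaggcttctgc
Defa30, chr8:21134500-21134649, + strand: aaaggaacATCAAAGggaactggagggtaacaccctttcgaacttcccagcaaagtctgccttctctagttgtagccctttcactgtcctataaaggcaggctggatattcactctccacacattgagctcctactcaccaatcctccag
With both strands searched from 250 bases before to 50 after the start, ATCAAAG occurred in 13 of 16 promoters of listed defensins that the table holds (81.2%), against 3.23% of all 27025 promoters, and TATAAA in 15 of 16 (93.8%), against 13.0%. Of these 16 promoters, 12 belong to defensins that were tested, and all 12 held ATCAAAG. The 4 others belong to defensins that were not tested. Most of them were not among the genes counted, so no level was measured for them. The letters were therefore not compared with expression. Tuft cell markers held ATCAAAG in 1 of 28 promoters, and the other Paneth granule products in 2 of 12 (16.7%). Defa22 carries ATCAAAG at 2 places in the stretch shown, and Defa36 and Defa30 carry it at 1. The promoters descend from common ancestors, so their matches are not independent, and a match of letters is a description and not a bound site. Defa22 had 37881, 5513, 4115 and 3897 CPM in the Paneth libraries, against 31.8, 0.554, 6.91 and 6.59 CPM in the TA libraries (log2 fold change 10.26, adjusted p = 0.00059).

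Of 14 other Paneth granule genes, 11 were higher in the Paneth fraction and none was lower, with a median log2 fold change of 7.11. Itln1, a lectin that binds microbial sugars, had 77576, 44870, 21261 and 32534 CPM in the Paneth libraries, against 911, 176, 165 and 129.7 CPM in the TA libraries (log2 fold change 7.35, SE 0.41, adjusted p = 0.00012). Ang4, a ribonuclease with antimicrobial action, had 36669, 17755, 9511 and 14473 CPM in the Paneth libraries, against 18.2, 4.83, 29.4 and 17.8 CPM in the TA libraries (log2 fold change 10.21, SE 0.77, adjusted p = 0.00039). Both showed no overlap between fractions. The pancreatic-lipase-related gene Pnliprp2 (log2 fold change 8.30, adjusted p = 0.00018), the pentraxin gene Mptx2 (log2 fold change 10.42, adjusted p = 0.0028) and Habp2, a secreted serine protease (log2 fold change 5.84, adjusted p = 0.00021), were higher as well. The 3 members that did not pass were the Reg3 lectins, which enterocytes and goblet cells also make. Reg3b had 2179.6, 896, 91.5 and 924 CPM in the Paneth libraries, against 1973, 2111, 239 and 392 CPM in the TA libraries, with overlapping sets and a log2 fold change of -0.33 (SE 0.45, adjusted p = 0.62) that turned to a positive sign without BO25 and without BO57. Reg3a had -0.79 (adjusted p = 0.19).

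Of 5 tested genes for niche signals, of 9 listed, 3 were higher in the Paneth fraction, against 1 with library totals alone and 2 without the animal block. Wnt3, the Wnt ligand of Paneth cells, had 64.0, 33.7, 12.8 and 21.3 CPM in the Paneth libraries, against 1.81, 2.24, 2.13 and 0.984 CPM in the TA libraries (log2 fold change 4.02, SE 0.45, adjusted p = 0.0016). Dll4, a Notch ligand, had 15.3, 16.7, 18.7 and 11.3 CPM in the Paneth libraries, against 6.76, 5.54, 3.05 and 1.79 CPM in the TA libraries (log2 fold change 2.00, SE 0.35, adjusted p = 0.0071). Neither gene's sets overlapped. Egf had a log2 fold change of 1.65 (adjusted p = 0.04). This call was lost without BN45 (adjusted p = 0.1), without BO25 (adjusted p = 0.14), without BO57 (adjusted p = 0.054) and without BP04 (adjusted p = 0.11). The other 2 tested members did not pass.

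**Figure D2:**
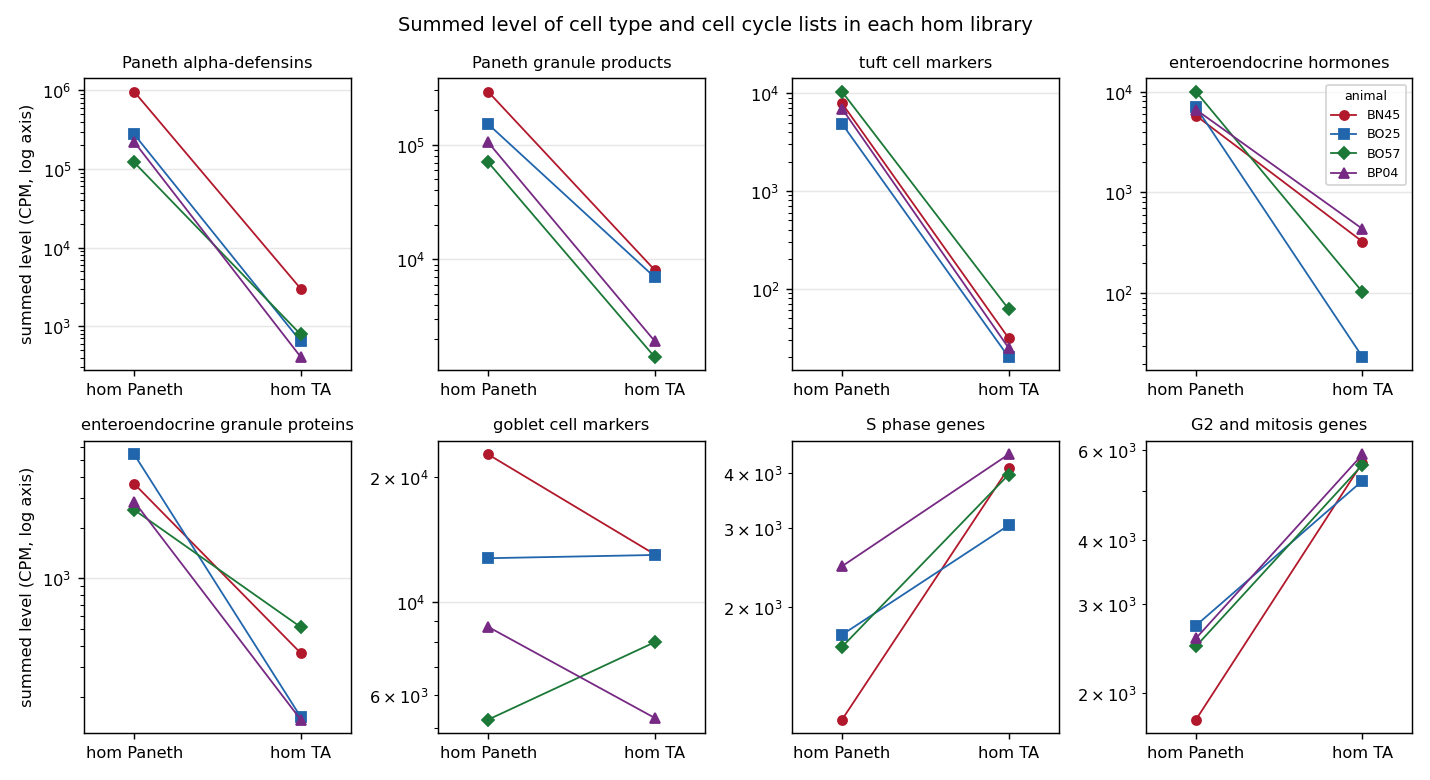
Summed level in CPM (log axes, each panel with its own range) of the members of 8 gene lists, with the hom Paneth library at the left and the hom TA library of the same animal at the right, joined by a line per animal. Defensins, granule products, tuft markers and enteroendocrine genes lie higher in all 4 Paneth libraries and the cell cycle lists lower, while the goblet sums cross.

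Tuft cell transcripts were higher throughout the list. All 33 tested tuft markers were higher in the Paneth fraction, with log2 fold changes from 4.07 to 12.42 and a median of 9.27, also with Sucnr1 and Il25, which had no TA count, set at their lower bounds. The count was 32 of 33 without BN45, without BO57, without BP04 and with library totals alone. Their summed level was 4860 to 10360 CPM in the Paneth libraries, against 20.1 to 62.0 CPM in the TA libraries. Members near 0 in the TA libraries, such as Sucnr1 and Il25, passed the filter on low counts through the Paneth libraries alone. They could not have been called lower, so the count of 33 of 33 is partly set by the filter. The same holds for defensins and hormones near 0 in the TA libraries. Dclk1, a microtubule-associated kinase used as the tuft cell marker, had 849.6, 324, 924 and 705 CPM in the Paneth libraries, against 0.0477, 0, 0.587 and 0 CPM in the TA libraries (log2 fold change 12.41, SE 0.75, adjusted p = 0.00016). It was at 0 counts in the TA libraries of BO25 and BP04. The genes of leukotriene synthesis were high together: Alox5ap had 459.6, 264, 722 and 525 CPM in the Paneth libraries, against 0.907, 0, 0.587 and 0.858 CPM in the TA libraries (log2 fold change 9.82, SE 0.58, adjusted p = 0.00015). Ltc4s had 82.8, 64.2, 124 and 90.0 CPM in the Paneth libraries, against 0.119, 0.237, 1.09 and 0.252 CPM in the TA libraries (log2 fold change 7.97, SE 0.43, adjusted p = 0.00012). Gng13, a G-protein subunit of taste signalling, had a log2 fold change of 8.71 (adjusted p = 0.00012), Itpr2, a calcium-release channel, 5.35 (adjusted p = 9.6e-05), and Matk, a Src-inhibiting kinase, 10.19 (adjusted p = 0.00015). In each of these genes the lowest Paneth library exceeded the highest TA library. The fraction thus held transcripts of tuft and enteroendocrine cells beside those of Paneth cells, and the part of tuft and enteroendocrine transcripts in the whole-fraction differences was not tested.

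Enteroendocrine genes were higher too, with more spread between animals. Of 12 hormone genes tested, 6 were higher and none was lower, at a median log2 fold change of 4.57. The count was 3 without BN45, 5 without BO25, 5 without BO57 and 6 without BP04. Their summed level was 5770 to 9969 CPM in the Paneth libraries, against 23.3 to 434 CPM in the TA libraries. Gip, the incretin of K cells, had 2432, 2242, 5112 and 3778 CPM in the Paneth libraries, against 84.0, 0, 5.26 and 0 CPM in the TA libraries (log2 fold change 11.02, SE 2.25, adjusted p = 0.012), and stood at 0 in 2 TA libraries. By mean TPM Gip was the 25th most abundant gene of the Paneth fraction, at 4371 ± 3621 TPM, against 76.3 ± 142 TPM in the TA fraction. Secretin, Sct, was the steadiest of the hormones, with 169, 309, 291 and 208 CPM in the Paneth libraries, against 9.74, 8.34, 8.64 and 3.15 CPM in the TA libraries (log2 fold change 5.10, SE 0.33, adjusted p = 0.00021). Ghrelin, Ghrl, had 1001, 671, 889.7 and 576 CPM in the Paneth libraries, against 0.0477, 0.580, 4.70 and 1.59 CPM in the TA libraries (log2 fold change 9.38, SE 0.96, adjusted p = 0.0012). Somatostatin, Sst, had 1862, 207, 2316 and 1610.2 CPM in the Paneth libraries, against 0.382, 7.41, 0 and 0.0252 CPM in the TA libraries (log2 fold change 11.67, SE 2.11, adjusted p = 0.0081). Its Paneth level in BO25 was far below the other 3, and its call was lost without BN45 (adjusted p = 0.057). Iapp (log2 fold change 8.29, adjusted p = 0.01) lost its call without BN45 (adjusted p = 0.061), and cholecystokinin, Cck (log2 fold change 6.56, adjusted p = 0.042), without BN45 (adjusted p = 0.082), without BO25 (adjusted p = 0.096) and without BO57 (adjusted p = 0.078). Tph1, the rate-limiting enzyme of serotonin synthesis (4.04, adjusted p = 0.086), and the neuropeptide gene Tac1 (2.94, adjusted p = 0.28) did not pass.

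All 13 tested genes for granule proteins and prohormone processing were higher in the Paneth fraction (median log2 fold change 4.62), but 11 without BN45 and 10 without BO25. Pcsk1, a prohormone convertase, had 64.5, 128, 117 and 48.4 CPM in the Paneth libraries, against 11.8, 7.55, 23.0 and 4.52 CPM in the TA libraries (log2 fold change 3.06, SE 0.33, adjusted p = 0.0014). Pam, which amidates peptide hormones (log2 fold change 3.80, adjusted p = 0.0012), Scg3, a granin (log2 fold change 7.84, adjusted p = 0.0022), and Bex2 (log2 fold change 4.06, adjusted p = 0.0021) did the same. Of 21 enteroendocrine transcription factors, 16 were higher and 1 was lower, with 13 higher without BN45 and 14 higher without BO25. Neurod1, a factor of differentiating endocrine cells, had 119, 120.1, 255 and 92.4 CPM in the Paneth libraries, against 8.45, 8.02, 10.7 and 0.429 CPM in the TA libraries (log2 fold change 4.73, SE 0.62, adjusted p = 0.0028). Nkx2-2 (4.62), Pax6 (4.88), Fev (5.26), St18 (6.49) and Sox4 (1.41) passed with adjusted p of 0.00046, 0.0017, 0.0018, 0.0022 and 0.00098. Hhex, a factor of somatostatin-producing D cells, had 15.3, 1.58, 17.2 and 16.3 CPM in the Paneth libraries and no count in any TA library, which gives a level at least 9.32 higher on the log2 scale against a floor of 3 counts over the 4 libraries. The member that was lower was Hnf4g, which enterocytes also use.

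The machinery of stimulated secretion followed the hormones. Of 22 tested genes for regulated exocytosis, 16 were higher and none was lower (median log2 fold change 3.23). Rab3d, a small GTPase of secretory granules in exocrine cells, had 114, 77.9, 63.5 and 38.9 CPM in the Paneth libraries, against 27.5, 23.5, 14.6 and 10.8 CPM in the TA libraries (log2 fold change 1.94, SE 0.15, adjusted p = 0.00046). Scgn, a calcium sensor of endocrine cells, had 198, 211, 468 and 285 CPM in the Paneth libraries, against 3.37, 0.0528, 5.03 and 4.14 CPM in the TA libraries (log2 fold change 6.82, SE 0.75, adjusted p = 0.0016). Cplx2 (log2 fold change 4.25, adjusted p = 0.00057) and Cadps (log2 fold change 7.90, adjusted p = 0.0017), both acting in vesicle fusion, were higher as well. Of 16 tested ion channel genes, of 20 listed, 12 were higher (75.0%, against 16.6% of all genes tested) and none was lower. The number higher was 9 without BN45 and 9 without BO57. Abcc8, the sulfonylurea receptor, had 23.4, 30.0, 42.2 and 29.1 CPM in the Paneth libraries, against 0.286, 0.106, 0.280 and 0.404 CPM in the TA libraries (log2 fold change 6.85, SE 0.40, adjusted p = 0.00015). Kcnj11, the pore with which it forms the ATP-sensitive potassium channel, had 2.96, 4.67, 4.99 and 2.93 CPM, against 1 count in all TA libraries together. The calcium channel gene Cacna1a (log2 fold change 4.01, adjusted p = 0.00021) and the potassium channel gene Kcnk16 (log2 fold change 9.16, adjusted p = 0.001) moved the same way. Of 13 tested nutrient and hormone receptors, of 20 listed, 8 were higher (61.5%) and none was lower, with 6 higher without BN45 and 6 without BO57. Members with no TA count passed the filter on low counts through the Paneth libraries alone, so they could not have been called lower. Ffar3, a receptor for short-chain fatty acids, had 36.5, 16.01, 25.2 and 15.4 CPM in the Paneth libraries and no count in the TA libraries, at least 10.09 higher on the log2 scale, and Galr1, a galanin receptor, was likewise at least 8.53 higher. The incretin receptor gene Glp1r (log2 fold change 8.54, adjusted p = 0.0015) and the cannabinoid receptor gene Cnr1 (log2 fold change 5.13, adjusted p = 0.0022) were higher, whereas Ptger4 and Lpar5 did not pass (log2 fold changes -0.52 and -0.40, adjusted p = 0.21 and 0.56).

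Goblet cell genes, the other large secretory group, moved in both directions. Of 22 tested, 4 were higher and 8 lower, at a median log2 fold change of -0.43. These are 18.2% and 36.4%, against 16.6% and 13.3% of all genes tested. With library totals alone 2 higher and 11 lower were called, and in 1 fit of all 24 libraries 3 higher and 3 lower. The summed goblet level overlapped between the fractions, at 5225 to 22600 CPM in the Paneth libraries, against 5276 to 13020 CPM in the TA libraries. Among those lower were products of mature goblet cells. Fcgbp, a mucus protein that binds mucin, had 39.1, 146, 44.0 and 24.9 CPM in the Paneth libraries, against 1899, 1949.6, 998 and 877 CPM in the TA libraries (log2 fold change -4.75, SE 0.34, adjusted p = 0.00034). Clca1, a mucus-processing protease, had 0.156, 4.90, 0.0372 and 2.30 CPM in the Paneth libraries, against 458, 381, 179.6 and 306 CPM in the TA libraries (log2 fold change -7.89, SE 0.83, adjusted p = 0.0013). Zg16, a lectin of mucus, had 0.701, 83.6, 10.5 and 4.35 CPM in the Paneth libraries, against 994, 1274, 1244 and 877 CPM in the TA libraries (log2 fold change -7.03, SE 1.02, adjusted p = 0.004). None of these 3 had an overlap between the fractions, although the Paneth level of Zg16 in BO25 stood well above that of the other animals. Tff3, a peptide of mucus repair, was lower by a smaller margin (log2 fold change -1.03, adjusted p = 0.0082). Muc2, the main gel-forming mucin, had 1283, 919, 232 and 413 CPM in the Paneth libraries, against 1445, 1097, 469 and 374 CPM in the TA libraries and did not pass (log2 fold change -0.32, adjusted p = 0.29). The chemokine genes Ccl6 (log2 fold change 2.93, adjusted p = 0.0015) and Ccl9 (log2 fold change 1.68, adjusted p = 0.002) and the protease inhibitor gene Spink4 (log2 fold change 2.38, adjusted p = 0.0038) were higher in the Paneth fraction. Spink4 had 13549, 4543, 1709.6 and 3554 CPM in the Paneth libraries, against 1635, 1250.3, 632 and 401 CPM in the TA libraries.

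Of 14 transcription factors of the secretory lineage, 8 were higher and none was lower; with library totals alone, 2 were higher and 1 lower, and the counts were 5 higher and 0 lower without BN45 and 5 higher and 0 lower without BO25. Sox9, which Paneth cell formation requires, had 358, 110.4, 149 and 199 CPM in the Paneth libraries, against 43.4, 36.5, 32.5 and 32.1 CPM in the TA libraries (log2 fold change 2.37, SE 0.25, adjusted p = 0.0013). Bhlha15, a factor that expands the secretory apparatus, had 54.8, 19.9, 11.4 and 15.997 CPM in the Paneth libraries, against 2.39, 1.85, 1.40 and 0.379 CPM in the TA libraries (log2 fold change 4.04, SE 0.44, adjusted p = 0.0015). Foxa1 was higher (log2 fold change 1.48, adjusted p = 0.0014), and Foxa3 was too (log2 fold change 1.60, adjusted p = 0.0085), although not without BN45 (adjusted p = 0.051). Nr5a2 did not pass (-0.67, adjusted p = 0.063).

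Genes of the absorptive lineage were mostly lower in the Paneth fraction where they passed. The 12 genes of smallest p in the lower direction included 3 carboxylesterase genes. The carboxylesterase gene Ces1f had 3.27, 9.20, 5.29 and 8.06 CPM in the Paneth libraries, against 51.4, 107, 75.5 and 60.6 CPM in the TA libraries (log2 fold change -3.55, SE 0.23, adjusted p = 0.00021). Ces2e had 48.0, 84.7, 51.1 and 46.8 CPM in the Paneth libraries, against 226, 313, 202 and 215 CPM in the TA libraries (log2 fold change -2.08, SE 0.14, adjusted p = 0.00021). Ces1e (-2.82), the fatty acid hydroxylase gene Cyp4f40 (-2.62), the esterase gene Aadac (-2.20) and the glucuronosyltransferase gene Ugt2a3 (-2.89) were lower with adjusted p of 0.00066, 0.0005, 0.00055 and 0.0007. Arg2, the mitochondrial arginase, had 36.1, 76.7, 47.3 and 57.6 CPM in the Paneth libraries, against 275, 285, 440.4 and 409 CPM in the TA libraries (log2 fold change -2.72, SE 0.24, adjusted p = 0.00065). Aoc1, the diamine oxidase that degrades histamine (-1.59), and Prap1 (-1.84) completed the 12 with Fcgbp, Mki67 and Hnf4g. In all 12 the highest Paneth library lay below the lowest TA library, by a narrow margin for Hnf4g and Prap1.

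Of 28 enterocyte markers, 4 were higher and 8 lower, with 2 higher and 4 lower without BN45, 3 higher and 5 lower without BO57, and 2 higher and 10 lower with library totals alone. The main counts are 14.3% higher and 28.6% lower, against 16.6% and 13.3% of all genes tested. The share higher is thus near that of all genes. Mttp, which loads lipoproteins, had 51.0, 111, 71.9 and 82.1 CPM in the Paneth libraries, against 143, 257, 148 and 181 CPM in the TA libraries (log2 fold change -1.22, SE 0.14, adjusted p = 0.0016). Dgat1, which makes triglycerides, was lower too (log2 fold change -1.25, adjusted p = 0.0023). The intestinal fatty acid binding protein gene Fabp2 (log2 fold change -1.16, adjusted p = 0.016) was lower but not without BN45 (adjusted p = 0.069) and without BP04 (adjusted p = 0.056). Fabp1, the liver-type fatty acid binding protein, went the other way, with 267, 480.4, 461 and 363 CPM in the Paneth libraries, against 151, 232, 203 and 241 CPM in the TA libraries (log2 fold change 0.91, SE 0.15, adjusted p = 0.006). Its call was lost with library totals alone. By TPM, which has no TMM scaling, its mean was lower in the Paneth fraction, at 596.5 ± 367.6 against 832.7 ± 149.2 (SD, n = 4 each). Slc15a1, the peptide transporter, was higher from a low level (log2 fold change 3.01, adjusted p = 0.008). Of 16 absorptive transcription factors, 2 were higher and 8 lower. The counts were 1 higher and 3 lower without BN45, 1 higher and 4 lower without BO25, 0 higher and 3 lower without BO57 and 0 higher and 4 lower without BP04, and 0 higher and 10 lower with library totals alone. Hnf4g, which drives the enterocyte programme, had 18.5, 51.6, 40.1 and 43.6 CPM in the Paneth libraries, against 53.5, 148, 114 and 151 CPM in the TA libraries (log2 fold change -1.59, SE 0.13, adjusted p = 0.00059). Hes1, the Notch target that holds back secretory fate, had 34.0, 53.5, 45.8 and 54.3 CPM in the Paneth libraries, against 65.2, 100.3, 104 and 103 CPM in the TA libraries (log2 fold change -0.99, SE 0.13, adjusted p = 0.003).

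**Figure D3:**
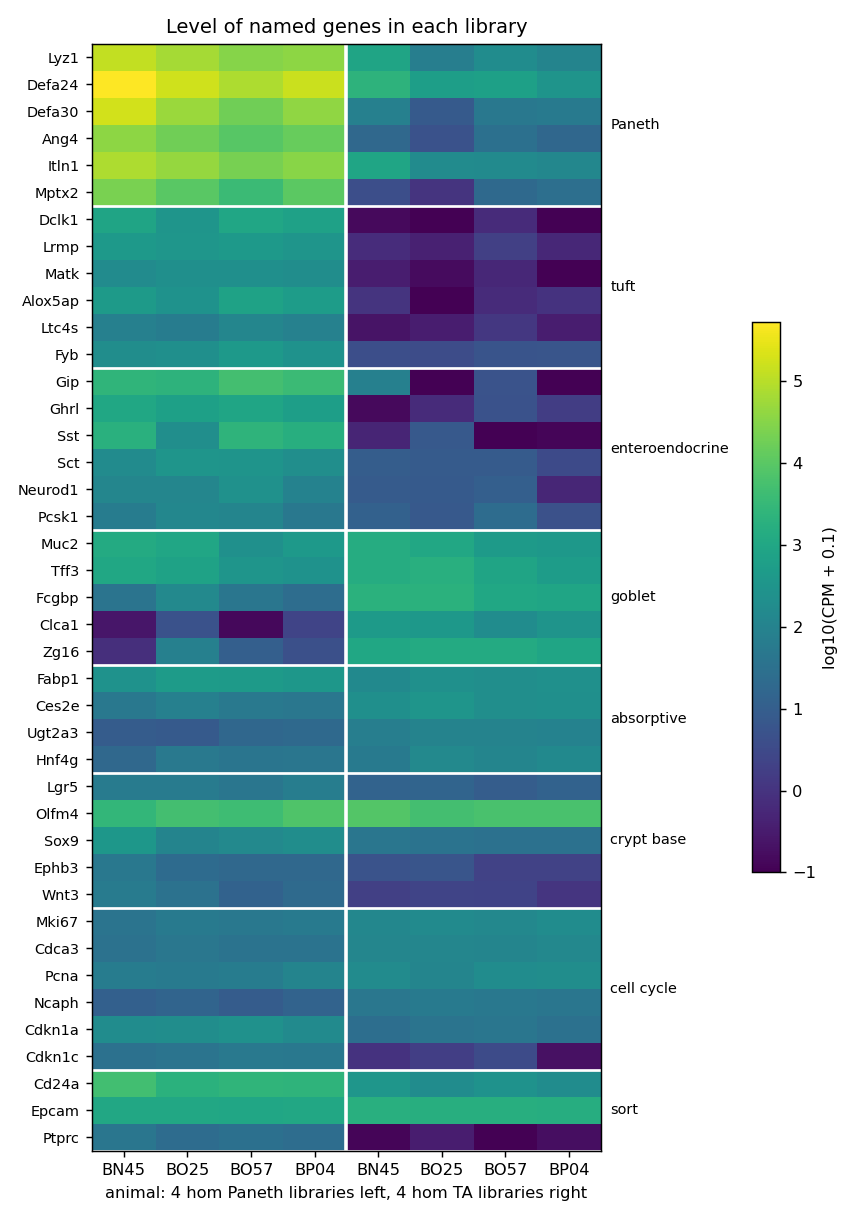
Level of 41 named genes as log10(CPM + 0.1), with the 4 hom Paneth libraries in the left columns, the 4 hom TA libraries in the right columns, and rows grouped by cell type or function. Each Paneth, tuft and enteroendocrine row is brighter at the left than at the right, whereas Olfm4 and Muc2 look alike in both.

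Crypt-base genes did not move as one. Of 24 stem cell markers, 4 were higher, 3 were lower and 17 did not pass, shares close to those of all genes tested. The counts were 3 higher and 1 lower without BO57, and 2 higher and 4 lower with library totals alone. Lgr5, the receptor that marks crypt-base stem cells, had 62.1, 63.5, 43.0 and 68.2 CPM in the Paneth libraries, against 13.7, 14.3, 9.51 and 12.8 CPM in the TA libraries (log2 fold change 2.23, SE 0.16, adjusted p = 0.00027), with no overlap. The Cre driver sits in this locus, the gates of each fraction are not given in the labels, and what part of the Lgr5 counts came from stem cells was not tested. Olfm4, another stem cell marker, had 2747, 5141, 4294 and 7573 CPM in the Paneth libraries, against 8159, 5044, 6099 and 6116 CPM in the TA libraries and did not pass (log2 fold change -0.43, SE 0.32, adjusted p = 0.35). Ephb3, the receptor that keeps Paneth cells at the crypt base, had 47.5, 22.5, 18.9 and 18.4 CPM in the Paneth libraries, against 4.99, 5.88, 1.99 and 2.07 CPM in the TA libraries (log2 fold change 2.90, SE 0.31, adjusted p = 0.0014). Cdca7 (log2 fold change -0.93, adjusted p = 0.014) was lower, but not without BO57 (adjusted p = 0.06), and Clca3b was lower in every fit that left out an animal (log2 fold change -0.69, adjusted p = 0.0093). Of 16 Wnt targets, 8 were higher and 1 lower, with 5 higher and 0 lower without BO57, 7 higher and 0 lower without BN45, and 4 higher and 2 lower with library totals alone. Nkd1, a feedback inhibitor of Wnt signalling, had 13.6, 9.42, 18.8 and 8.63 CPM in the Paneth libraries, against 7 counts over the TA libraries together (log2 fold change 8.30, adjusted p = 0.00077). The target that was lower, Ccnd1 (log2 fold change -0.98, adjusted p = 0.027), drives the G1 phase and lost its call without BN45 (adjusted p = 0.11) and without BO57 (adjusted p = 0.098). Myc did not pass (-0.79, adjusted p = 0.062). Of 20 Notch pathway genes, 4 were higher and 1, Hes1, was lower, against 2 higher and 3 lower with library totals alone and 5 higher and 2 lower without BO25. The main counts are 20.0% higher and 5.0% lower, so the share higher is near that of all genes tested (16.6%). Besides Dll4 the higher ones were Maml3, a coactivator (log2 fold change 1.77, adjusted p = 0.0046), and the ligand genes Dll3 (log2 fold change 5.29, adjusted p = 0.01) and Jag2 (log2 fold change 5.37, adjusted p = 0.016), the last not without BO57 (adjusted p = 0.061).

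Proliferation genes were lower in the Paneth fraction with no exception in direction among the calls. Of 60 S phase genes, none was higher and 46 were lower (76.7%, against 13.3% of all genes), at a median log2 fold change of -1.29, with 30 lower without BO57. Their summed level was 1118 to 2468 CPM in the Paneth libraries, against 3048 to 4396 CPM in the TA libraries. Pcna, the sliding clamp of replication, had 67.2, 57.3, 65.3 and 109.5 CPM in the Paneth libraries, against 174, 113, 181 and 196 CPM in the TA libraries (log2 fold change -1.16, SE 0.16, adjusted p = 0.0031). Prim1, the primase (log2 fold change -1.55, adjusted p = 0.0023), and Gins2, of the replicative helicase (log2 fold change -1.60, adjusted p = 0.0027), were lower as well. Of 62 G2 and mitosis genes, none was higher and 53 were lower (85.5%), at a median of -1.59, with 42 lower without BN45. Their summed level was 1776 to 2718 CPM in the Paneth libraries, against 5230 to 5890 CPM in the TA libraries. Mki67, the proliferation antigen, had 37.4, 58.3, 49.3 and 59.7 CPM in the Paneth libraries, against 125, 165, 138 and 185 CPM in the TA libraries (log2 fold change -1.59, SE 0.13, adjusted p = 0.00053). Cdca3 (-1.69), Ncaph, a condensin subunit (-2.04), and Cks2 (-1.40) had adjusted p of 0.00071, 0.00091 and 0.0014. The cycle genes were thus lower in the Paneth libraries without being absent from them.

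Among 22 G1 control genes, 4 were higher and 4 lower, which is 18.2% in each direction and near the shares of all genes tested (16.6% and 13.3%). Leaving out an animal left the numbers higher at 2 without BN45, 3 without BO25, 2 without BO57 and 2 without BP04, and the numbers lower at 2 without BN45, 3 without BO25, 1 without BO57 and 3 without BP04. With library totals alone the counts were 2 higher and 7 lower. Cdkn1a, the p21 inhibitor of cyclin-dependent kinases, had 187, 199, 251 and 164 CPM in the Paneth libraries, against 26.9, 38.8, 42.5 and 31.8 CPM in the TA libraries (log2 fold change 2.52, SE 0.15, adjusted p = 0.00015). Cdkn1c, the p57 inhibitor, had 31.1, 39.0, 50.8 and 47.5 CPM in the Paneth libraries, against 0.835, 1.69, 3.24 and 0.101 CPM in the TA libraries (log2 fold change 5.22, SE 0.70, adjusted p = 0.003). Ccnd2, a D cyclin, was lower, at 107, 141, 119.8 and 129 CPM in the Paneth libraries, against 319.5, 332, 308 and 289 CPM in the TA libraries (log2 fold change -1.33, SE 0.14, adjusted p = 0.0012). All 3 had no overlap between the fractions.

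The promoters of 2 mitotic genes are shown for the cell cycle homology region (CHR), the element through which late cell cycle genes are repressed in resting cells. Ube2c and Cdc20 were picked from the list for a match close to the start, outside the rule that chose the other names and after their values were seen. The 150 bases before the start are given from RefSeq (GRCm38.p6) on the gene's strand, with the CHR letters TTTGAA, or TTCAAA where it lies on the opposite strand, in capitals.
Ube2c, chr2:164769779-164769928, + strand: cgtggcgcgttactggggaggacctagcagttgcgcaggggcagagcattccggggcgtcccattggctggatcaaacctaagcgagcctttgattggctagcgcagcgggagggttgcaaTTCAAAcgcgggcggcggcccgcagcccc
Cdc20, chr4:118437344-118437493, - strand: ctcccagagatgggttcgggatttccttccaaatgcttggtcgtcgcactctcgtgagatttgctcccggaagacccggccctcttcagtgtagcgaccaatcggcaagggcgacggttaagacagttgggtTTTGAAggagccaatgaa
On both strands, TTTGAA occurred in 21 of 54 promoters of G2 and mitosis genes (38.9%), against 16.3% of all promoters, and CCAAT in 43 of 54 (79.6%), against 34.5%. In S phase genes TTTGAA occurred in 6 of 45 promoters and CCAAT in 28 of 45. TTTGAA also occurred in 6 of 12 promoters of the other Paneth granule products, a list in which no gene was lower. It occurred in 0 of 16 defensin promoters, 4 of 28 tuft, 2 of 12 enteroendocrine granule and 1 of 15 enteroendocrine factor promoters. Neither sequence was thus particular to the G2 and mitosis genes, and its link to expression was not tested. Ube2c, a ubiquitin-conjugating enzyme of mitotic exit, had 44.3, 104, 70.0 and 40.9 CPM in the Paneth libraries, against 192, 186, 248 and 199 CPM in the TA libraries (log2 fold change -1.77, adjusted p = 0.0036). Cdc20, an activator of the anaphase-promoting complex, had 10.7, 51.9, 26.6 and 9.48 CPM in the Paneth libraries, against 117, 79.4, 56.0 and 59.5 CPM in the TA libraries (log2 fold change -1.92, adjusted p = 0.024). This call was lost without BN45 (adjusted p = 0.078) and without BP04 (adjusted p = 0.071).

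**Figure D4:**
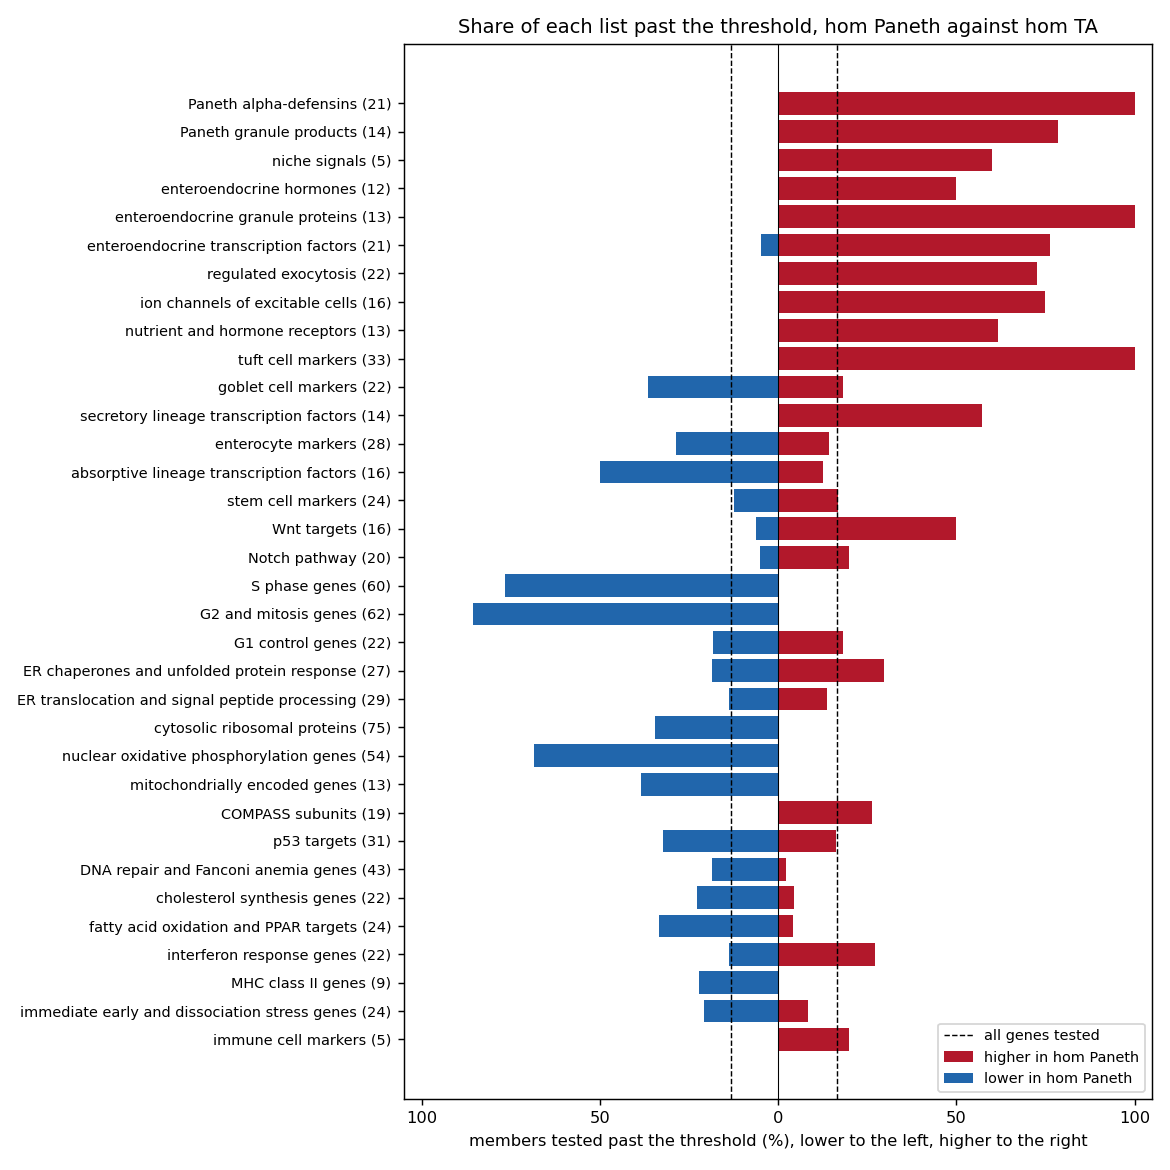
Percent of the tested members of 34 gene lists, those with at least 5 members tested, that were higher (red, to the right) or lower (blue, to the left) in hom Paneth than in hom TA. The number tested is in brackets and dashed lines give the shares of all genes tested, 16.6% higher and 13.3% lower. Defensin, tuft and enteroendocrine granule lists reach 100% higher, and the S phase and mitosis lists have the longest blue bars.

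A high secretory load did not go with a uniform rise of the secretory pathway genes. Of 27 endoplasmic reticulum (ER) chaperone and unfolded protein response genes, 8 were higher (29.6%) and 5 lower (18.5%), against 16.6% and 13.3% of all genes tested. With library totals alone the counts were 1 and 6. Ero1lb, an oxidase that serves disulfide formation in secretory cells, had 82.2, 46.7, 58.3 and 73.7 CPM in the Paneth libraries, against 5.63, 5.12, 2.69 and 2.195 CPM in the TA libraries (log2 fold change 4.13, SE 0.33, adjusted p = 0.00052). Herpud1 (log2 fold change 0.84, adjusted p = 0.0047), Dnajb9 (log2 fold change 0.86, adjusted p = 0.0065) and the stress sensor gene Atf6 (log2 fold change 1.00, adjusted p = 0.0072) were higher. The chaperone genes Hspa5 and Pdia4 were lower: Hspa5, the main ER chaperone, had 598, 576, 594 and 582 CPM in the Paneth libraries, against 972, 846, 791 and 780.2 CPM in the TA libraries (log2 fold change -0.52, adjusted p = 0.031). This call was lost without BN45 (adjusted p = 0.065), without BO25 (adjusted p = 0.072), without BO57 (adjusted p = 0.089) and without BP04 (adjusted p = 0.1). Pdia4 held in each such fit (log2 fold change -0.76, adjusted p = 0.016). The number lower was 3 without BN45, 1 without BO25, 1 without BO57 and 1 without BP04. Of 29 genes for translocation into the ER, 4 were higher and 4 lower, which is 13.8% in each direction and near the shares of all genes tested, and 0 and 8 with library totals alone. They were 1 higher and 1 lower without BN45, 1 higher and 2 lower without BO25, 2 higher and 1 lower without BO57 and 2 higher and 1 lower without BP04. Sec11c, a signal peptidase subunit, had 565, 514, 509 and 535 CPM in the Paneth libraries, against 235, 229.8, 239 and 264 CPM in the TA libraries (log2 fold change 1.13, SE 0.13, adjusted p = 0.0018). Stt3a, an oligosaccharyltransferase subunit, had 192, 219, 167 and 180.5 CPM in the Paneth libraries, against 365, 353, 354 and 307 CPM in the TA libraries (log2 fold change -0.86, SE 0.14, adjusted p = 0.0051).

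Genes of protein synthesis and respiration were lower where they passed. Of 54 nuclear genes of oxidative phosphorylation, none was higher and 37 were lower, at a median log2 fold change of -0.67. The number lower was 40 without BN45, 27 without BO25, 20 without BO57 and 22 without BP04. Sdha, of complex II, had 215, 241, 246 and 226 CPM in the Paneth libraries, against 546, 515, 510.3 and 529.99 CPM in the TA libraries (log2 fold change -1.18, SE 0.13, adjusted p = 0.0017). Ndufa9, of complex I, had 169.6, 209.8, 187 and 199.5 CPM in the Paneth libraries, against 518, 400.2, 443 and 545 CPM in the TA libraries (log2 fold change -1.31, SE 0.16, adjusted p = 0.0021). Cyc1 and Uqcrc2, of complex III, had log2 fold changes of -1.28 and -1.28 (adjusted p = 0.0023 and 0.0029). Of 13 mitochondrially encoded genes, none was higher and 5 were lower, 2 without BN45, 1 without BO25, 3 without BO57 and 2 without BP04; DESeq2 called 1 higher. Of 75 genes for cytosolic ribosomal proteins, none was higher and 26 were lower (median -0.51), 27 without BN45, 18 without BO25, 4 without BO57 and 4 without BP04. With library totals alone 62 were lower, at a median of -1.22, and with DESeq2 40. Rps2 (log2 fold change -1.01, adjusted p = 0.0058), Rpl3 (log2 fold change -0.84, adjusted p = 0.0082) and Rpl10a (log2 fold change -0.81, adjusted p = 0.0098) were lower in all of these fits. Ribosomal protein genes have many processed copies, so reads of a gene and its copies may have been split or dropped.

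Setd1a is a subunit of a COMPASS complex, and its partners and relatives were counted as a list. Of 19 tested, 5 were higher (26.3%, against 16.6% of all genes tested) and none was lower, and with library totals alone 0 were higher and 6 lower. The counts were 3 higher and 0 lower without BN45. Kmt2a, the methyltransferase also known as MLL1, had 74.2, 55.4, 64.7 and 69.4 CPM in the Paneth libraries, against 19.8, 25.1, 18.9 and 18.1 CPM in the TA libraries (log2 fold change 1.69, SE 0.19, adjusted p = 0.0016). Kmt2c (log2 fold change 0.78, adjusted p = 0.0082) and Kmt2b (log2 fold change 1.16, adjusted p = 0.0098), 2 other methyltransferases, and Cxxc1, the CpG-binding subunit of the Setd1 complexes (log2 fold change 0.84, adjusted p = 0.012), were higher. Cxxc1 lost its call without BN45 (adjusted p = 0.0502). The core subunits Dpy30, Wdr5, Rbbp5 and Ash2l had log2 fold changes of -0.39, -0.70, -0.55 and -0.42 and did not pass (adjusted p = 0.055, 0.056, 0.093 and 0.095).

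The study's title names DNA damage. Of 31 p53 targets, 5 were higher and 10 lower in the hom Paneth fraction, with 3 higher and 4 lower without BN45, 4 higher and 6 lower without BO25, 3 higher and 5 lower without BO57 and 3 higher and 5 lower without BP04. With library totals alone 3 higher and 11 lower were called. The main counts are 16.1% higher and 32.3% lower, against 16.6% and 13.3% of all genes tested, so the share higher is near that of all genes. Besides Cdkn1a, the higher ones included Plk2, a kinase (log2 fold change 2.55, adjusted p = 0.0012), and Trp53inp1 (log2 fold change 2.02, adjusted p = 0.00088). The lower ones included Pmaip1, a pro-apoptotic BH3 protein (log2 fold change -1.76, adjusted p = 0.01), and Ephx1, an epoxide hydrolase (log2 fold change -1.90, adjusted p = 0.005). Ckap2 was lower as well (log2 fold change -1.62, adjusted p = 0.0064) and is also on the G2 and mitosis list. Of 43 DNA repair and Fanconi anemia genes, 1 was higher (2.33%) and 8 were lower (18.6%), against 16.6% and 13.3% of all genes tested. The number lower was 3 without BN45, 5 without BO25, 2 without BO57 and 6 without BP04. With library totals alone 0 higher and 13 lower were called, and DESeq2 called 4 higher. Xrcc6, of end joining, was among the lower (log2 fold change -0.81, adjusted p = 0.013). The one higher, Prkdc (log2 fold change 1.11, adjusted p = 0.031), lost its call without BN45 (adjusted p = 0.084), without BO25 (adjusted p = 0.098), without BO57 (adjusted p = 0.055) and without BP04 (adjusted p = 0.068).

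Metabolic and defence lists gave smaller counts, to be read against 16.6% higher and 13.3% lower among all genes tested. The shares higher and lower were 4.17% and 33.3% for fatty acid oxidation and 4.55% and 22.7% for cholesterol synthesis. They were 27.3% and 13.6% for interferon response, 0.0% and 22.2% for MHC class II and 8.33% and 20.8% for immediate early genes. The interferon share lower is thus near that of all genes. Of 24 fatty acid oxidation genes and PPAR targets, 1 was higher, Fabp1, and 8 were lower, among them the acyl-CoA dehydrogenase genes Acadm (log2 fold change -0.90, adjusted p = 0.0031) and Acadvl (log2 fold change -1.46, adjusted p = 0.0059) and the thiolase gene Acaa2 (log2 fold change -1.35, adjusted p = 0.0042). The number lower was 5 without BN45, 5 without BO25, 5 without BO57 and 5 without BP04. With library totals alone 0 higher and 10 lower were called. Of 22 cholesterol synthesis genes, 1 was higher and 5 were lower, with 0 higher and 3 lower without BO57 and 1 higher and 3 lower without BP04. Those lower included Idi1 (log2 fold change -1.11, adjusted p = 0.0053), Ebp (log2 fold change -0.87, adjusted p = 0.0061) and Nsdhl (log2 fold change -0.83, adjusted p = 0.0093). Of 22 interferon response genes, 6 were higher and 3 lower, 5 higher and 1 lower without BO57, 7 higher and 1 lower without BP04 and 4 higher and 5 lower with library totals alone. Ifi27 had 73.9, 58.4, 97.6 and 66.7 CPM in the Paneth libraries, against 14.1, 6.94, 18.7 and 16.2 CPM in the TA libraries (log2 fold change 2.47, SE 0.21, adjusted p = 0.00057). Oas2, an RNA sensor, was higher (log2 fold change 6.44, adjusted p = 0.0016) and so was the transcription factor gene Irf7 (log2 fold change 2.91, adjusted p = 0.0022), whereas the immunoproteasome gene Psmb9 was lower (log2 fold change -1.15, adjusted p = 0.0023). Of 9 MHC class II genes, none was higher and 2 were lower, Ctss (log2 fold change -1.24, adjusted p = 0.0059) and H2-DMa (log2 fold change -1.07, adjusted p = 0.037). The H2-DMa call was lost without BN45 (adjusted p = 0.063), without BO57 (adjusted p = 0.059) and without BP04 (adjusted p = 0.087). Immediate early and dissociation stress genes, which respond to tissue handling, were higher in 2 and lower in 5 of 24 (0 higher and 5 lower without BN45, 2 higher and 2 lower without BO25, 1 higher and 4 lower without BO57, 2 higher and 2 lower without BP04, and 0 higher and 8 lower with library totals alone). Dnajb1, a heat shock cochaperone, was among the lower (log2 fold change -0.89, adjusted p = 0.0068).

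Markers used for the sort moved in 3 cases upward and in 1 downward. Cd24a, which encodes CD24, had 4939, 1901, 2515 and 2304 CPM in the Paneth libraries, against 328, 184, 259 and 183 CPM in the TA libraries (log2 fold change 3.55, SE 0.19, adjusted p = 0.00012). Epcam had 1088, 1079, 963 and 1066 CPM in the Paneth libraries, against 1708, 1668, 1598 and 1556 CPM in the TA libraries (log2 fold change -0.64, SE 0.15, adjusted p = 0.018). This call was lost without BO57 (adjusted p = 0.079) and without BP04 (adjusted p = 0.076). Ptprc, which encodes CD45, had 42.0, 23.2, 30.4 and 24.5 CPM in the Paneth libraries, against 0.0239, 0.237, 0 and 0.0757 CPM in the TA libraries (log2 fold change 8.47, SE 0.72, adjusted p = 0.00061), although the cells were stained for CD45. Of 30 immune cell markers, 5 were expressed enough to test and Ptprc alone was called. The summed level of the list was 35.1 to 47.1 CPM in the Paneth libraries and 7.24 to 10.96 CPM in the TA libraries. Ptprc made up most of the sum in each Paneth library, so the sums do not show a rise of the other markers. Of the list, 3 had no count in any Paneth library and 10 had none in any TA library. Of 15 stromal and endothelial markers, 3 were tested and none was called (none at an adjusted p below 0.05, the smallest being 0.076 for Vim), while DESeq2 called 1 higher and 1 lower. Of 10 neuron and glia markers, 4 were tested and 2 were higher, Elavl4 (log2 fold change 9.11, adjusted p = 0.00077) and Ret (log2 fold change 3.46, adjusted p = 0.0025), both also known from enteroendocrine cells.

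The same contrast was set beside that of the het control animals. In het animals 16177 genes were tested and 4714 were called (29.1%), 2646 higher (16.4%) and 2068 lower (12.8%) in the Paneth fraction. The counts were 1575 higher and 845 lower without BN44, 1909 and 1173 without BO27, and 1701 and 1028 without BP03. The genes called higher in both genotypes numbered 1852, which is 69.0% of the hom list and 70.0% of the het list, and those called lower in both numbered 1491, which is 69.2% of the hom list and 72.1% of the het list. No gene was called in opposite directions. Of 4735 genes called in hom animals and tested in het animals, 99.2% had the same sign. Lyz1 averaged 57603 ± 29495 CPM in het Paneth libraries and 149.98 ± 59.8 CPM in het TA libraries (SD, n = 4 each; log2 fold change 8.55, beside 8.18 in hom animals). The tuft list was higher in 33 of 33 genes in het animals, at a median log2 fold change of 10.18, and the G2 and mitosis list was lower in 52 of 62, at a median of -1.59.

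**Figure D5:**
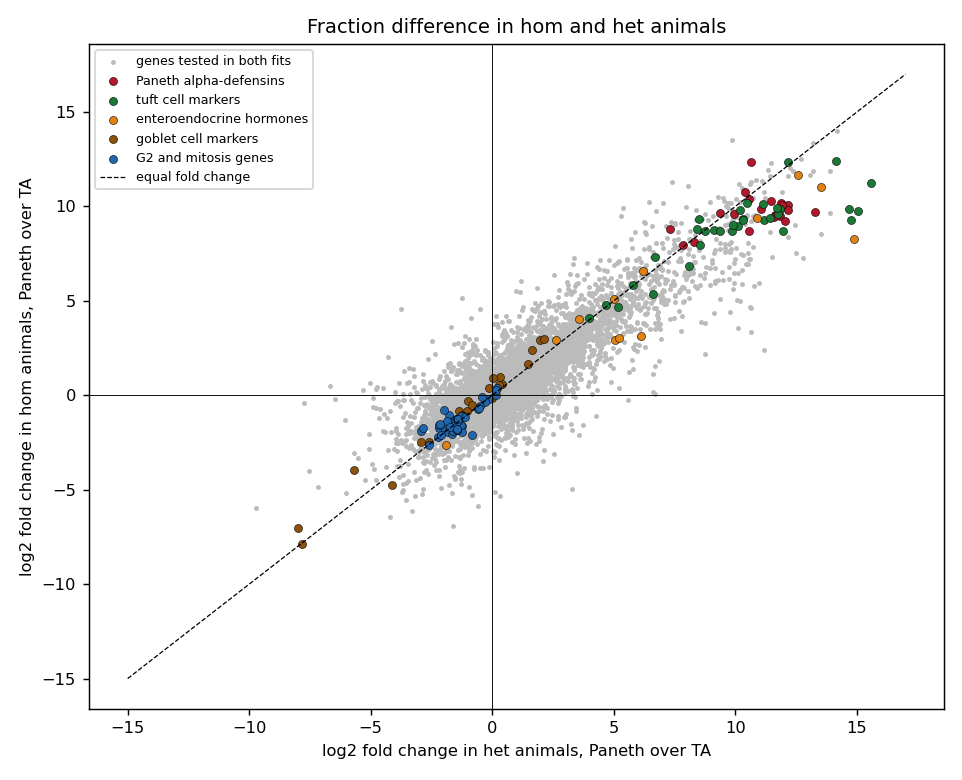
Log2 fold change of Paneth over TA in hom animals (vertical axis) against that in het animals (horizontal axis), one point for each of the 15493 genes tested in both, with 5 gene lists coloured and the line of equal fold change dashed. Listed genes fall along the line, and the defensins, tuft markers and hormones spread most at fold changes above 7.

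The test of the difference between the genotypes in this contrast called no gene of 18262 (0.0%; edgeR's quasi-likelihood test of the interaction, Benjamini-Hochberg adjusted), with 760 genes (4.16%) at an unadjusted p below 0.05. DESeq2 called 14 higher and 16 lower, the test without the filter on low counts 9 higher and 25 lower, and the test without the animal block 1 higher. The smallest adjusted p was 0.87, for Cyp2c55, a cytochrome P450 of arachidonate and drug metabolism. It averaged 11.4 ± 7.92 CPM in the hom Paneth libraries and 6.96 ± 2.21 CPM in the hom TA libraries, against 0.0876 ± 0.107 CPM in the het Paneth libraries and 7.33 ± 3.83 CPM in the het TA libraries (SD, n = 4 each). The interaction fit, which scaled the hom and het libraries together, gave 7.01 on the log2 scale (SE 1.04). The hom and het levels printed side by side, here and elsewhere, come from separate fits with their own scaling. The other genes of smallest p with a positive interaction were Gsdmc3 (2.02), Gm10767 (3.48), Fbxw5 (1.66) and Bckdk (1.05), and those with a negative one were 9930024M15Rik (-8.13), Trove2 (-1.63), Klhl13 (-8.68), Hook3 (-1.17) and Tcea2 (-5.11), all at an adjusted p of 1. A difference that misses the threshold does not show that the genotypes were alike in this contrast.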

How the data were processed

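RNA was measured by sequencing in 8 libraries, the hom Paneth and hom TA fractions of 4 animals, with 8 het libraries of the same fractions beside them. The authors deposited raw read counts per gene from featureCounts 2.0.1 in 1 table, counted as read pairs without regard to strand at a mapping quality of at least 1 over Ensembl release 98 on mm10, per the file headers. Demultiplexing used bcl2fastq 2.20.0, per the submitters' processing notes, and the aligner's settings are not given in the sources used here. Without strand, reads of overlapping and antisense genes cannot be told apart. Symbols and coordinates came from GENCODE M21 (GRCm38), which matched 55154 of 55421 gene identifiers. The 92 rows of spike-in controls, which held at most 6 counts in a library, stayed out of library sizes and tests.

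Counts were tested with edgeR 4.0.16 (quasi-likelihood F test, TMM scaling, filterByExpr, animal as block, Benjamini-Hochberg adjusted p below 0.05) in R 4.3.3. DESeq2 1.42.0, other scalings, other filters, no block, 1 fit of all 24 libraries and leaving out each animal were alternatives. Standard errors were derived from the fold change and the F statistic. CPM values use TMM-scaled sizes, and a fold against a group with no count uses a floor of 3 counts over its 4 libraries, which covers counting error only. Shares were tested by exact permutation over all sign changes of the 4 pairs in Python 3.11.15, and the fits were tested on simulated data. Each animal's 2 libraries are paired by the animal code in the titles. Deviations from the group means correlated at 0.027 to 0.144 between the fractions of an animal, each above that animal's highest correlation with another animal of its genotype.

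Hom Paneth libraries held 25279345 to 35273988 counts and hom TA libraries 27998132 to 32709930. Genes were named by rule: the 12 of smallest p in each direction with a mean of at least 5 CPM, up to 4 members of each list in each direction by p (8 for defensins, hormones, enteroendocrine factors and tuft markers), 11 genes fixed by name, the 15 of highest TPM in each fraction as candidates, and 5 in each direction of the interaction; other names were chosen after their values were seen. Members and lists were chosen with earlier results of these data known, so no list is independent evidence of its direction. Stem cell libraries entered only the fit of all 24 libraries. Some genes that the rule names are not reported here.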

Additional observations from a re-analysis of the deposited data

Results flagged for a closer look

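In 49 of 468 groups of 4 libraries, 1 library lay far from the other 3: its gap to the nearest, divided by the group's range, was above Dixon's critical value, which chance gives in about 1 of 20 groups. The groups are the hom Paneth and hom TA values of the genes named, list sums and shares; several share genes, and no explanation was tested. In the TA groups of Asic5, Kcnj11, Kcnk16, Glp1r and Elavl4 the value is 1 count beside 3 libraries with none, so that gap follows from a single count.

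In BN45, the Paneth library was the highest of 4 for Defa22 (37881 CPM), Defa27 (195 CPM), Defa36 (688 CPM), Defa37 (310.2 CPM), Ephb3 (47.5 CPM), Foxa1 (73.1 CPM), the summed secretory lineage transcription factors (1332 CPM), the summed immediate early and dissociation stress genes (2957 CPM) and the summed sorting markers (6131 CPM). It was the lowest of 4 for Xrcc6 (29.3 CPM). In BN45, the TA library was the highest of 4 for Defa27 (0.859 CPM), Defa3 (13.9 CPM), Defa36 (0.549 CPM), Gip (84.0 CPM), Itln1 (911 CPM), Kcnk16 (0.0239 CPM), Lyz1 (846 CPM), the summed alpha-defensins (3006 CPM), the summed Wnt targets (389.8 CPM), the summed immediate early and dissociation stress genes (3142 CPM) and the share of counts in defensins (0.3894%). It was the lowest of 4 for Hes1 (65.2 CPM) and Ugt2a3 (74.0 CPM).

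In BO25, the Paneth library was the highest of 4 for Cdca3 (46.0 CPM), Ces2e (84.7 CPM), Fcgbp (146 CPM), Psmb9 (52.3 CPM), Tac1 (249.4 CPM) and Zg16 (83.6 CPM). It was the lowest of 4 for Hhex (1.58 CPM) and the summed cholesterol synthesis genes (756 CPM). In BO25, the TA library was the highest of 4 for Asic5 (0.0264 CPM), Kcnj11 (0.0264 CPM) and Sst (7.41 CPM). It was the lowest of 4 for Prim1 (99.6 CPM) and Uqcrc2 (465 CPM).

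In BO57, the Paneth library was the highest of 4 for Asic5 (62.6 CPM), Neurod1 (255 CPM), Rgs22 (81.3 CPM) and the summed enteroendocrine transcription factors (1248 CPM). In BO57, the TA library was the highest of 4 for Dclk1 (0.587 CPM), Glp1r (0.0280 CPM), Ltc4s (1.09 CPM), Nkd1 (0.168 CPM), Rgs13 (16.7 CPM) and Scg3 (1.29 CPM).

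In BP04, the Paneth library was the highest of 4 for Acadm (97.9 CPM) and Ebp (105.2 CPM). In BP04, the TA library was the highest of 4 for Elavl4 (0.0252 CPM).

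Gm10767, an unnamed gene on chromosome 13, had 5.19 ± 1.95 CPM in the hom Paneth libraries and 1.63 ± 0.581 CPM in the hom TA libraries, against 1.58 ± 1.02 CPM in the het Paneth libraries and 4.92 ± 1.67 CPM in the het TA libraries (SD, n = 4 each). It was higher in the Paneth fraction of each hom animal (log2 fold change 1.68) and lower in that of each het animal (log2 fold change -1.83), and the difference did not pass (interaction 3.48, edgeR's adjusted p = 1). The spike-in controls, which the comparisons left out, had 6 counts in the hom Paneth library of BO25, against at most 1 in the hom TA libraries.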

How the results depend on the processing

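With libraries scaled by their totals alone, hom counts were 1046 higher and 3682 lower, and het counts 1467 higher and 3772 lower, with the median shifted as given above. Leaving out an animal gave 1537 to 2101 higher and 1108 to 1635 lower in hom animals, and 1575 to 2334 higher and 845 to 2147 lower in het animals. Without the replicate block that pairs an animal's libraries, hom counts were 2635 higher and 1973 lower, het counts 2813 and 1908, and the interaction called 1 gene higher. DESeq2 called 14 higher and 16 lower for the interaction, and the fit with no low count filter 9 and 25. Every other alternative called 0. In hom animals the other scalings, filters and tests left the counts within 1.5 times, DESeq2 being the largest at 3775 and 2850. Of 192 tested genes named in the text, 172 were called and 136 kept call and direction under every alternative that gave them a value (the filter at a mean of 5 CPM gave none for 16 of the 192); no called gene turned its sign, 22 lost the call with library totals alone and 19 without some animal. Genes that turned their sign had not passed: with totals alone Setd1a had -0.45, Bckdk -0.64 and Cyp2c55 -0.18; without 1 animal Cyp2c55 had -0.078 to 1.01, and Reg3b -0.84 to 0.034. The cause was not tested. Depth limits what can be said of genes at 1 to 3 counts in a fraction, and 4 animals limit the precision of every fold.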

Other observations

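Gene families outside the lists were looked at by symbol, and those given here were chosen after their values were seen, with no test of the family. Counts are read against 16.6% higher and 13.3% lower among all genes tested. Of 10 UDP-glucuronosyltransferase genes tested, which conjugate drugs and bilirubin, none was higher and 7 were lower, at a median log2 fold change of -2.50 (the Ugt1a genes share exons, so their counts are uncertain). Ugt2b34 had 130.2, 159, 114 and 151 CPM in the Paneth libraries, against 357, 356, 348 and 364 CPM in the TA libraries (log2 fold change -1.38, edgeR's adjusted p = 0.0012). Of 18 glutathione S-transferase genes, none was higher and 10 were lower. Gstp1 had 139, 194, 187 and 176 CPM in the Paneth libraries, against 297, 391, 429.97 and 370.03 CPM in the TA libraries (-1.10, adjusted p = 0.0017). Of 12 carboxylesterase genes, which cleave esters, 1 was higher and 7 were lower. Of 35 cytochrome P450 genes, 5 were higher and 8 were lower, at a median of -0.11.

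Regulators of G-protein signalling, which switch off receptor-activated G proteins, were higher in 8 of 11 cases and lower in none, at a median log2 fold change of 4.88, and in the same number under each scaling and without each animal. Rgs13, which tuft cells express, had 2062, 670.01, 2795 and 1387 CPM in the Paneth libraries, against 1.55, 0, 16.7 and 1.34 CPM in the TA libraries (9.86, adjusted p = 0.0012). Rgs2 had 317, 189, 159 and 114 CPM in the Paneth libraries, against 61.8, 13.8, 23.9 and 18.6 CPM in the TA libraries (2.86, adjusted p = 0.0007). Of 77 genes for mitochondrial ribosomal proteins, none was higher and 40 were lower, at a median of -0.58. Of 17 genes for the proteasome core, none was higher and 14 were lower. The number lower was 8 without BN45, 6 without BO57 and 6 without BP04.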
